A study of Mus musculus with 3 samples.

Results

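The connexins and pannexins are a family of membrane proteins that form channels, and the 10 genes described here are Gja1, Gjc3, Gjb1, Gjc1, Gja4, Gja5, Gjb2, Gjb6, Panx1 and Panx2. They were chosen by name, with earlier results of these data known, and are 10 of 23 connexin and pannexin genes among the 32227 genes counted. All 10 had UMIs in kept nuclei. The level of each was followed across the cell classes of the mouse dorsal root ganglion (DRG) and between adult and aged mice.

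A connexin hexamer forms a hemichannel, and hemichannels of neighbouring cells dock to form a gap junction through which ions and small metabolites pass. Connexins also act within a single cell, as in the myelin sheath, where channels join adjacent turns of the same Schwann cell. Pannexins resemble connexins in fold but are glycosylated, seldom dock, and mainly release ATP and other small molecules to the outside. In the DRG, gap junctions between satellite glial cells (SGCs), the glia around each sensory neuron soma, are known to couple the glial sheath.

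Nuclei came from DRG of levels L3 to L5 of C57BL/6 mice, with no treatment or transgene given in the labels, and were captured with PIP-seq, in which each transcript receives a unique molecular identifier (UMI). There was 1 library of adult mice (3 months) and there were 2 libraries of aged mice (21 months). The study calls the libraries biological replicates. The number of mice behind each is not stated, p-values measure the spread between these libraries, and since only 1 library is adult, its age and its other features cannot be told apart. A younger age stands in the series' own description of the aged mice, and the sample labels were followed.

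The libraries held 69045987 to 167664164 UMIs. Over 1000 genes were seen in 19259 barcodes, kept as nuclei, of which 11518 were adult and 5130 and 2611 came from aged replicates 1 and 2. No pair of libraries shared more than 1 kept barcode. All 3 libraries are labelled male, yet Xist, the transcript of the inactive X chromosome, had a UMI in 85.5%, 66.3% and 72.2% of nuclei, while Uty and Eif2s3y, both on the Y chromosome, had one in at most 1.97%. Ddx3y, also on the Y chromosome, had a UMI in 12.8%, 12.2% and 9.46%. By Xist the labelled sex goes against the data in all 3 libraries alike, which bears on Gjb1, a gene of the X chromosome. The study's methods, unlike the labels, state that aged mice were female and adult mice of both sexes. Of the nuclei, 18314 fell into 13 classes named from marker genes, each called like a cell type, in clusters formed without the 23 connexin and pannexin genes. Classes of SGC-like, myelinating and non-myelinating Schwann cell (MSC and NMSC)-like, neuron-like, endothelial-like, mural-like, myeloid-like, B lymphocyte-like and erythroid-like nuclei were found, with 4 fibroblast-like classes told apart by Ranbp3l, Slc47a1, Pdgfra or Pax9. The MSC-like and endothelial-like clusters raised all 8 of their markers and the larger SGC-like cluster 5 of 7, whereas the NMSC-like cluster raised 3 of 6, together with 4 of 5 general glial and 3 of 6 fibroblast markers. A level is given in CPM, the usual scaling of a gene's UMIs to all UMIs of the same class and library. Nuclear RNA was counted at the 3' end, and levels were compared between classes and libraries for 1 gene at a time, never between genes.

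Promoter sequence is shown for the connexins of the myelin sheath, Gjb1 and Gjc3, since Gjb1 is a known target of the transcription factor Sox10 in Schwann cells. The windows are the 250 bases before annotated starts, 5′ to 3′ on the gene's strand, from RefSeq on GRCm38.p6. Capitals mark the Sox core motifs ACAAAG and ACAATG, searched on both strands.
Gjb1, chrX:101376126-101376375: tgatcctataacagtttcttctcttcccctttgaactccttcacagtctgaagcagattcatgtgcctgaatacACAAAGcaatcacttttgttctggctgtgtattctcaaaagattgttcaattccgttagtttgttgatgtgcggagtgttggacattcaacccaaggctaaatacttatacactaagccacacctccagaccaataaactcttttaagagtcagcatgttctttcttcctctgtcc
Gjb1, chrX:101383482-101383731: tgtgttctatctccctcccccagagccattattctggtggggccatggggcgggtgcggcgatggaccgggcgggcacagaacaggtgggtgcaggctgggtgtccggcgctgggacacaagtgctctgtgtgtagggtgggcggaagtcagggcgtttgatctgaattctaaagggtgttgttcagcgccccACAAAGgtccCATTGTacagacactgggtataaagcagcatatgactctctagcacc
Gjc3, chr5:137963099-137963348: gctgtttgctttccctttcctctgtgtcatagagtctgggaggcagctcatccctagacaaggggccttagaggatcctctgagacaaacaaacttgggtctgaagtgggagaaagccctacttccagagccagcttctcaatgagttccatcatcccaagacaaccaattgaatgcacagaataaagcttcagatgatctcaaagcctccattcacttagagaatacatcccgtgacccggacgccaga
Of 4 Gjb1 windows, 2 held a motif. The window of the downstream start held 2 of them, beginning 57 and 47 bases before the start, one on each strand. The other window held 1. The Gjc3 window held none of these letters. In RefSeq as a whole, 25.2% of 32851 such windows held at least 1 motif and 4.12% held 2 or more. Windows were found for 8 of the 10 genes, 11 windows in all, of which 3 held a motif (the third belongs to Gja5). Such a match is a description of the letters and no evidence of binding.

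On GRCm38 with the GENCODE M21 annotation, Gja1 lies at chr10:56377330-56402513, plus strand, ENSMUSG00000050953. Gjc3 lies at chr5:137953461-137963098, minus strand, ENSMUSG00000056966. Gjb1 lies at chrX:101376378-101385629, plus strand, ENSMUSG00000047797. The vascular connexins are at separate loci, Gjc1 at chr11:102799579-102819700, minus strand, ENSMUSG00000034520, Gja4 at chr4:127311421-127314039, minus strand, ENSMUSG00000050234, and Gja5 at chr3:96904693-97077416, plus strand, ENSMUSG00000057123. Gjb2 (at chr14:57098600-57104702, minus strand, ENSMUSG00000046352) and Gjb6 (at chr14:57123303-57133611, minus strand, ENSMUSG00000040055) are neighbours on 1 strand, 18600 bases apart. Panx1 lies at chr9:15002128-15045478, minus strand, ENSMUSG00000031934, and Panx2 at chr15:89059734-89073567, plus strand, ENSMUSG00000058441. Use of strand in the counting is not stated, which matters for Gja5, which overlaps Gpr89 and 2 antisense genes, among others, on the other strand, and for Panx2, which overlaps the antisense gene 1810021B22Rik.

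Each gene's level was compared between classes in the 10 classes with 20 or more nuclei in every library. Of the 10 genes, 8 passed the filter on low counts (Gja5 and Gjb2 did not), and all 8 were higher in at least 1 class than in the mean of the others (edgeR quasi-likelihood test with the library as a block, adjusted p under 0.05). Over all genes tested, 82.9% were called higher in at least 1 class, so a call as such does not set these genes apart. In 80 pairs of gene and class, 18 were higher and 9 lower. Over all genes, those called in a class, in either direction, ran from 2432 (Pax9 fibroblast-like) to 8305 (neuron-like) of 14110 tested. The share of the 80 pairs that was called lies within that range. When classes with as few as 3 nuclei in a library were added, among them the mural-like and Ranbp3l fibroblast-like classes, 9 of 9 genes tested were called, against 88.4% of all genes. What differed among the 10 was the class in which each was high.

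**Figure D1:**
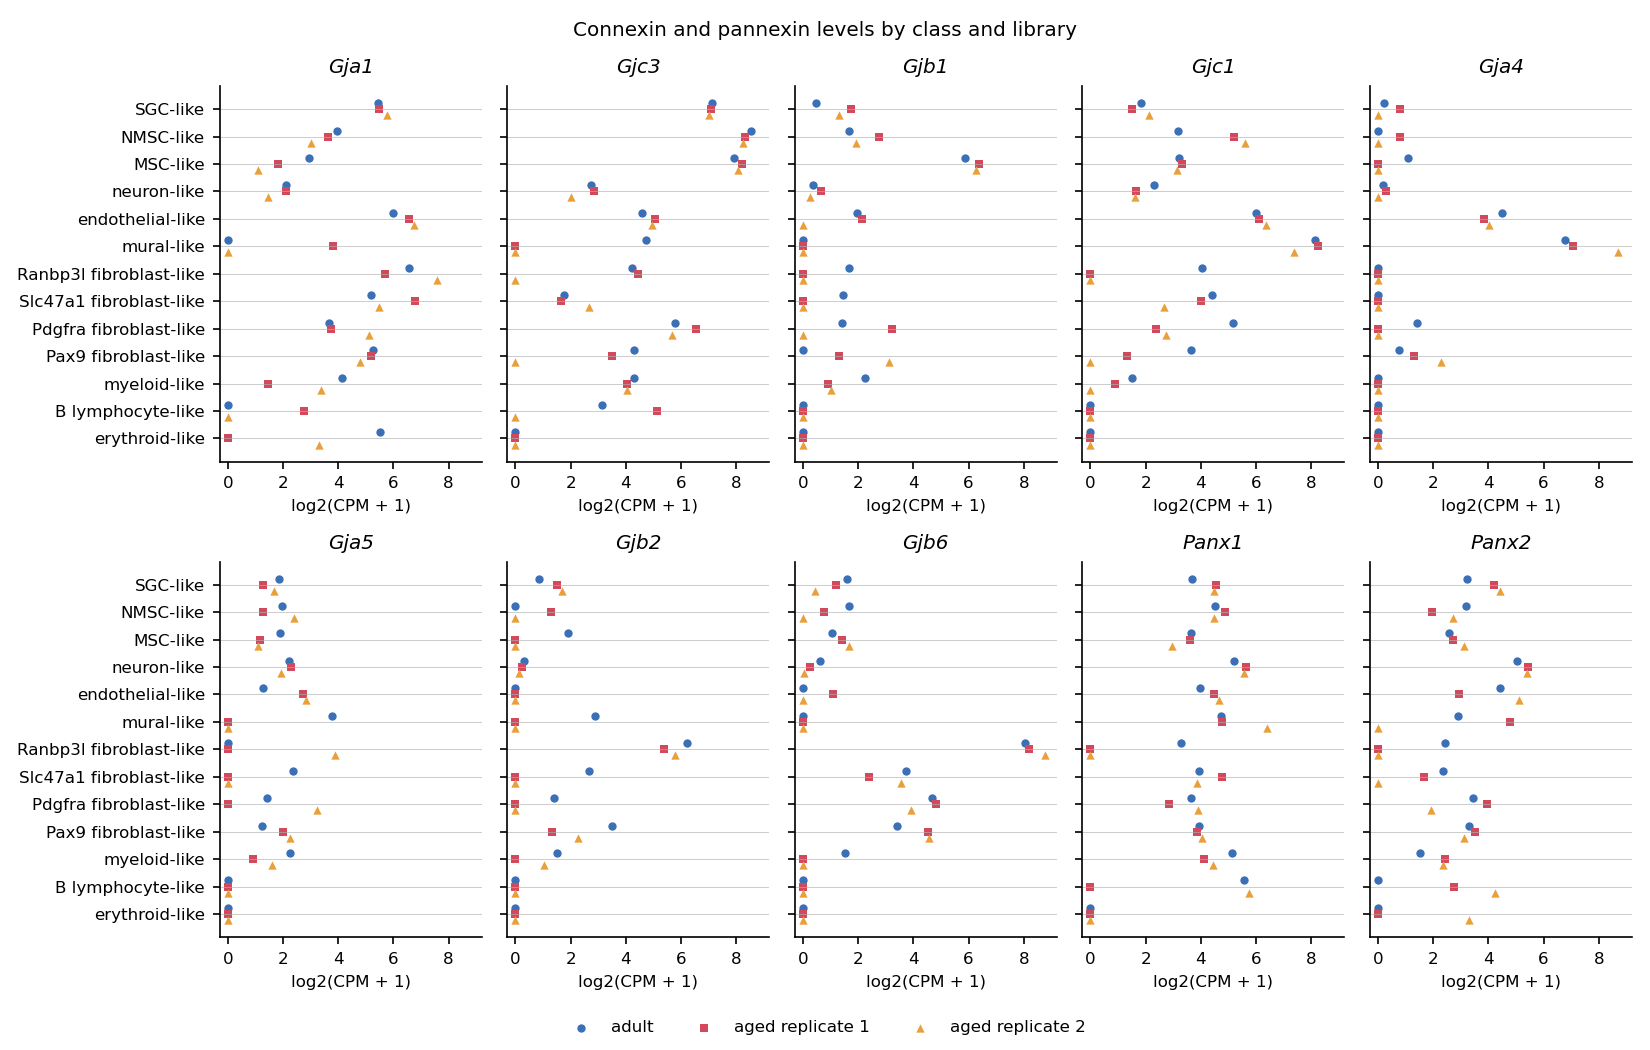
Level of each of the 10 genes in 13 classes, as log2(CPM + 1) on the x axis, with 1 point for each library (adult, aged replicate 1, aged replicate 2). The points of Gjb1 stand out in MSC-like nuclei, those of Gjb2 and Gjb6 in the Ranbp3l fibroblast-like class, those of Gja4 and Gjc1 in mural-like nuclei, and those of Gjc3 in the 3 glial classes.

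Among the connexins of glia, Gjc3 (connexin 29), found in Schwann cells and oligodendrocytes, was the most widely spread over the glial classes. Its level in NMSC-like nuclei was 370 CPM in the adult library and 317 and 300 CPM in aged replicates 1 and 2, the order used from here on. In MSC-like nuclei Gjc3 stood at 242, 295 and 265 CPM, and in SGC-like nuclei at 139, 134 and 129 CPM. The libraries of the 3 classes did not overlap, and the order was the same in all 3 libraries. The step from MSC-like down to SGC-like was 0.96 on the log2 scale (SE 0.23, adjusted p = 0.0019, edgeR quasi-likelihood test). The step of Gjc3 between NMSC-like and MSC-like nuclei, 0.33 with a 95% interval from -0.15 to 0.80, did not pass the threshold (adjusted p = 0.40). Below the glia came the Pdgfra fibroblast-like class, where Gjc3 had 54.7, 91.5 and 50.6 CPM, 1.16 (SE 0.27) below SGC-like nuclei on the log2 scale (adjusted p = 0.0017). Neuron-like nuclei were 4.75 (SE 0.26) below SGC-like nuclei for Gjc3, and Slc47a1 fibroblast-like nuclei, at 2.35, 2.16 and 5.38 CPM, overlapped them. When each nucleus was assigned by its own markers, Gjc3 in NMSC-like nuclei was no longer higher but lower than the mean of the other classes (-0.97, adjusted p = 1.1e-04, against 3.85 in the NMSC-like cluster). The nuclei found in that way held more CPM of neuron than of glial markers, as given below for Gjc1. Their Gjc3 level therefore does not describe Schwann cells alone.

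The share of nuclei with a Gjc3 UMI depends on depth. In SGC-like nuclei it was 33.4% in the adult library, against 52.3% and 55.6% in the aged ones, at median depths of 3109, 6992 and 7883 UMIs. Thinned to 1000 UMIs in each nucleus, the Gjc3 shares in SGC-like nuclei were 12.7%, 12.6% and 12.2%. In neuron-like nuclei, which should lack Gjc3, 6.01%, 5.74% and 4.91% had a UMI at median depths of 5830 to 7465, and free RNA, measured in barcodes of 10 to 100 UMIs, held 26.0, 24.8 and 17.7 CPM.

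Gjb1 (connexin 32) is the connexin of non-compact myelin, and its loss of function causes an X-linked form of Charcot-Marie-Tooth neuropathy. In MSC-like nuclei it stood at 57.3 CPM in adult mice, 82.7 and 75.4 CPM in aged mice, from 104, 195 and 68 UMIs. No other class came near. NMSC-like nuclei were next with 2.20, 5.73 and 2.81 CPM, from 3, 8 and 2 UMIs. Gjb1 was 4.31 higher in MSC-like than in NMSC-like nuclei on the log2 scale (SE 0.49, 95% interval 3.3 to 5.3, adjusted p = 1.4e-07, edgeR quasi-likelihood test). Of all Gjb1 UMIs in classed nuclei, 77.8% were in MSC-like nuclei. A UMI of Gjb1 was found in 14.4%, 26.2% and 27.4% of MSC-like nuclei, against 0.111%, 1.68% and 1.48% of SGC-like nuclei. Within MSC-like nuclei, Gjb1 had a UMI in 14.4%, 28.4% and 31.0% of nuclei with Gjc3 and in 14.4%, 23.4% and 21.2% of those without, and deeper nuclei are likelier to have both.

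Gja1 (connexin 43), the connexin through which SGCs and astrocytes are known to couple, was not particular to glia. SGC-like nuclei had 42.4, 43.5 and 53.8 CPM. Endothelial-like nuclei had 62.2, 93.0 and 106 CPM of Gja1, and Slc47a1 fibroblast-like nuclei 35.9, 110 and 43.0 CPM. The Ranbp3l fibroblast-like class, with 128, 21 and 12 nuclei, gave 93.9, 51.4 and 190 CPM of Gja1, from 43, 5 and 14 UMIs. Ordered by mean, each of these classes overlapped the next between libraries, and no difference between any pair of them passed the threshold. Endothelial-like nuclei, which were above SGC-like nuclei in all 3 libraries with no overlap, exceeded them in Gja1 by 0.75 on the log2 scale, with a 95% interval from 0.01 to 1.49 (adjusted p = 0.13), and Slc47a1 fibroblast-like nuclei exceeded them by 0.19, with an interval from -0.58 to 0.96 (adjusted p = 0.75). Within glia the order was plain. Gja1 was 2.01 (SE 0.43, adjusted p = 0.0020) lower in NMSC-like and 3.68 (SE 0.49, adjusted p = 7.1e-07) lower in MSC-like than in SGC-like nuclei on the log2 scale, by the edgeR quasi-likelihood test. In SGC-like nuclei Gjc3 had a UMI in 35.0%, 57.8% and 62.0% of those with Gja1 and in 33.1%, 50.7% and 53.3% of those without, and deeper nuclei are likelier to have both. Between the 2 SGC-like clusters the genes ran opposite ways. Gja1 was at 40.3, 32.0 and 46.1 CPM in the larger and at 53.2, 61.0 and 73.9 CPM in the smaller one, which also raised neuron markers. Gjc3 was at 150.1, 157 and 142 CPM in the larger and at 79.8, 97.3 and 92.7 CPM in the smaller one.

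Of the vascular connexins, Gjc1 and Gja4 had their highest levels in the vessel wall. Gjc1 (connexin 45), known from smooth muscle and the conduction system of the heart, stood at 281, 303 and 165 CPM in mural-like nuclei, from 44, 23 and 2 UMIs. Endothelial-like nuclei followed with 62.2, 68.4 and 81.8 CPM of Gjc1, with no overlap. Mural-like nuclei exceeded endothelial-like nuclei in Gjc1 by 1.68 on the log2 scale (SE 0.51, adjusted p = 0.028). Gja4 (connexin 37), an endothelial and pericyte connexin, was at 109, 132 and 413 CPM in mural-like and 21.7, 13.5 and 15.1 CPM in endothelial-like nuclei, from 32 UMIs in each class. The difference of Gja4 was 2.85 (SE 0.66, adjusted p = 0.0035) on the log2 scale. The mural-like class held 57, 18 and 3 nuclei, so that the third library gave 5 Gja4 UMIs and 2 Gjc1 UMIs there. Outside these classes Gja4 had at most 6 UMIs in any class other than neuron-like nuclei. Within endothelial-like nuclei, the 10, 7 and 3 nuclei with Gja4 had 621, 2019 and 1473 CPM of arterial markers, against 577, 724 and 883 CPM in nuclei without it, and the nuclei with a UMI were the deeper ones in each library.

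Gja5 (connexin 40), which in arteries is an endothelial connexin, had few UMIs in the vessel classes here. Endothelial-like nuclei held 1, 5 and 2 UMIs, or 1.45, 5.60 and 6.06 CPM. Neuron-like nuclei held 242, 157 and 84 Gja5 UMIs, or 3.59, 3.84 and 2.78 CPM. They also held most UMIs of all genes, 67396452 of 90262403 in the adult library. Their count of Gja5 UMIs alone therefore does not place the gene in neurons. Free RNA held 4.74, 1.97 and 2.11 CPM of Gja5, above the neuron-like level in the adult library and below it in both aged ones. Among subclasses of neuron-like nuclei the Gja5 level was unequal, as given below. The endothelial-like and neuron-like libraries overlapped, and Gja5 passed no filter in the class test. The neuron-like counts can include reads of the opposite-strand genes that overlap Gja5.

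Gjb2 (connexin 26) and Gjb6 (connexin 30), which form mixed gap junctions in the cochlea and in the leptomeninges, were both high in the Ranbp3l fibroblast-like class. This name is uncertain. The cluster raised 4 of 6 fibroblast and 3 of 7 SGC markers. SGC markers summed to 7300, 5849 and 6445 CPM in it, above the 2443, 1966 and 1952 CPM of SGC-like nuclei, and fibroblast markers to 1260, 1336 and 1115 CPM. With connexins kept in the clustering, a cluster led by Ranbp3l raised 3 of 7 SGC and 3 of 6 fibroblast markers and stayed unnamed. Gjb6 stood there at 262, 288 and 435 CPM, from 120, 28 and 32 UMIs. The Pdgfra fibroblast-like class was next with 24.9, 27.0 and 14.1 CPM of Gjb6, and the difference was 3.69 on the log2 scale (SE 0.49, adjusted p = 9.6e-07, edgeR quasi-likelihood test). Gjb2 was at 74.3, 41.1 and 54.4 CPM in the Ranbp3l fibroblast-like class, from 34, 4 and 4 UMIs, and at 10.3, 1.49 and 3.81 CPM in Pax9 fibroblast-like nuclei, a difference of 3.26 (SE 0.72, adjusted p = 0.0020). Neither gene's Ranbp3l fibroblast-like libraries overlapped those of another class. Of 128, 21 and 12 Ranbp3l fibroblast-like nuclei, 52.3%, 52.4% and 50% had a Gjb6 UMI, against 0.276%, 0.504% and 0.370% of SGC-like nuclei. In the adult library Gjb6 was found in 77.3% of the 22 nuclei with a Gjb2 UMI and in 47.2% of those without, and deeper nuclei are likelier to have both. All 3 other fibroblast-like classes held Gjb6 at lower levels. The Pdgfra and Pax9 classes did not differ past the threshold (0.49, 95% interval -0.80 to 1.78, adjusted p = 0.77).

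Both pannexins were higher in neuron-like than in SGC-like nuclei. Panx1, the ATP release channel opened by depolarization and by caspase cleavage, had 35.6, 48.6 and 46.4 CPM in neuron-like nuclei, from 2401, 1989 and 1402 UMIs. In SGC-like nuclei Panx1 had 11.7, 22.5 and 21.1 CPM, below neuron-like nuclei in every library and lower by 1.30 on the log2 scale (SE 0.26, adjusted p = 1.1e-04, edgeR quasi-likelihood test). Mural-like nuclei had 25.6, 26.4 and 82.6 CPM of Panx1 from 7 UMIs, and B lymphocyte-like nuclei 46.3, 0 and 52.9 CPM from 9 UMIs, so that neither class can be placed above or below neurons. Panx2, a pannexin of neurons that resides largely on inner membranes, had 31.4, 41.7 and 40.7 CPM in neuron-like nuclei, from 2115, 1709 and 1229 UMIs. By the edgeR quasi-likelihood test it stood 1.25 (SE 0.39, adjusted p = 0.0093) above endothelial-like and 1.40 (SE 0.29, adjusted p = 2.2e-04) above SGC-like nuclei. Endothelial-like nuclei had 20.3, 6.73 and 33.3 CPM of Panx2, which overlapped the neuron-like range. In neuron-like nuclei Panx2 had a UMI in 46.4%, 57.3% and 66.2% of nuclei with a Panx1 UMI, against 21.0%, 21.2% and 24.3% of those without, and deeper nuclei are likelier to have both.

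Free RNA held the pannexins at levels like those of neurons. Panx1 was at 44.8, 58.8 and 61.3 CPM in barcodes of 10 to 100 UMIs, and Panx2 at 30.5, 33.3 and 34.3 CPM. The part of free RNA in the lower Panx1 and Panx2 levels of the other classes was bounded only from markers. At most 19.6%, 14.2% and 19.7% of the UMIs of all genes in SGC-like nuclei could come from it. Free RNA held more Panx1 and Panx2 than SGC-like nuclei in every library. The bound on their Panx1 and Panx2 UMIs is therefore higher than these shares. Against the mean of the remaining classes, Panx2 was called higher in SGC-like nuclei (0.96, SE 0.27, adjusted p = 0.0068), but this did not hold in the larger of the 2 SGC-like clusters alone, where the difference was -0.12 (adjusted p = 0.83). The Panx2 call in SGC-like nuclei was also lost without aged replicate 1 (0.80, adjusted p = 0.14) and without aged replicate 2 (0.96, adjusted p = 0.050).

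Neuron-like nuclei were split into peptidergic (PEP), non-peptidergic (NP), neurofilament (NF), tyrosine hydroxylase (TH), somatostatin (SST) and cold-sensing (COLD) subclasses and the rest. Of the 10 genes, 6 were tested there, and Panx1, Panx2, Gja5 and Gjc1 were higher in at least 1 subclass than in the mean of the others, where 77.9% of all genes were. Panx1 was highest in PEP nuclei, with 60.1, 61.8 and 57.8 CPM, and in NP nuclei, with 50.4, 57.9 and 58.9 CPM. Both were called higher (PEP 0.58, SE 0.13, and NP 0.62, SE 0.13, on the log2 scale), and these are the subclasses that hold most nociceptors. TH nuclei, the low-threshold mechanoreceptors of hairy skin, had 24.05, 31.7 and 19.4 CPM of Panx1 and were called lower (-0.71, SE 0.16).

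Panx2 had another order. Its mean was highest in NF nuclei, which are large-diameter mechanoreceptors and proprioceptors, with 32.3, 61.1 and 64.0 CPM, and in NP nuclei, with 46.5, 53.9 and 51.0 CPM. The adult NF level was below the adult levels of NP, COLD (39.7 CPM), PEP (35.6 CPM) and SST nuclei (35.4 CPM). Panx2 was called higher in both (NF 0.46, SE 0.11, and NP 0.57, SE 0.10) and lower in TH nuclei (-0.66, SE 0.13) and in the nuclei outside the named subclasses (-0.78, SE 0.11), where it was at 20.6, 24.9 and 25.1 CPM. In NF nuclei, by contrast, Panx1 was called lower (-0.49, SE 0.15), at 17.4, 37.8 and 44.0 CPM. Of the 2 clusters of NF nuclei, the one of low Malat1 held 309 of 773 adult, 409 of 555 and 129 of 184 aged NF nuclei. Panx2 was at 68.6, 98.1 and 108 CPM in it and at 19.8, 23.7 and 30.9 CPM in the other, and Panx1 at 38.6, 53.3 and 59.1 CPM against 10.1, 22.2 and 32.6 CPM. The same split ran through other subclasses. Panx1 stood at 48.4, 52.6 and 59.1 CPM in the TH cluster of low Malat1 and at 20.2, 27.8 and 16.2 CPM in the other, and at 73.9, 94.3 and 77.2 CPM in the NP cluster of low Malat1 against 46.2 to 57.7 CPM in the rest of the NP nuclei. The subclasses held unequal shares of such clusters, and the part of this in their order was not tested. The NF levels of both libraries of aged mice therefore rest on another mixture of clusters than the adult level.

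Among the connexins of neuron-like nuclei, Gja5 was called higher in the nuclei outside the named subclasses (1.45, SE 0.21), at 5.67, 5.70 and 5.50 CPM. It was also called higher in NF nuclei (1.23, SE 0.24), at 4.52, 6.59 and 4.33 CPM, and lower in TH nuclei (-1.15, SE 0.34), at 1.65, 0.348 and 0.896 CPM. Gjc1 was called higher in NF nuclei (0.97, SE 0.29) and in the nuclei outside the named subclasses (0.89, SE 0.26), and lower in PEP nuclei (-1.31, SE 0.36). Connexin 36, the product of Gjd2 and the classical connexin of electrical synapses, was outside the 10 genes and had 89 UMIs in all. Gjd2 was called higher in NF nuclei (4.85, SE 0.55). Its estimates in other subclasses were unstable (PEP -1.93, SE 788, and COLD -3.86, SE 2.97), so the size of the NF difference is uncertain.

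**Figure D2:**
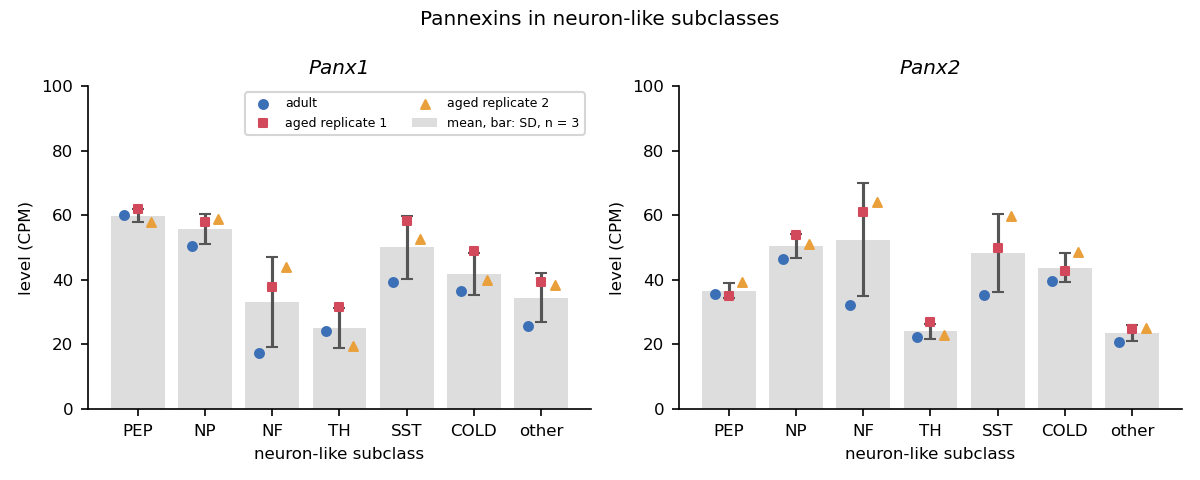
Level (CPM, y axis from 0) of Panx1 and Panx2 in 7 subclasses of neuron-like nuclei. Grey bars are means with SD over 3 libraries, and points are the libraries. Panx1 is high in PEP and NP, Panx2 in NF and NP, and both are low in TH, with Panx2 as low in the rest of the nuclei, while the adult point lies below both aged points in NF.

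The genes whose levels ran most alike were sought over the 39 sums of class and library among 13612 genes, by Pearson's r of log2 CPM, as a description only, since sums of 1 library share depth and sums of 1 class share nuclei. Gja1 was most like Ildr2 (r = 0.90), followed by Zfyve21 (0.84) and Glul (0.80), the glutamine synthetase gene, which was itself among the SGC markers. Gjc3 was most like Dnlz (0.89) and Cdh19 (0.86), a Schwann cell lineage cadherin that was among the glial markers. Gjb1 was nearest to Myrfl (0.92) and Gjc1 to Lamc3 (0.89) and Pde3a (0.81). Gjb6 was nearest to Nat8f7 (0.90) and Crabp2 (0.86), a retinoic acid binding protein gene. For Gjb2 the nearest were Trpm3 (0.75) and Fgfbp1 (0.70). Panx1 was nearest to Sdc1 (0.86) and Adcy3 (0.85), and Panx2 to 2310002F09Rik (0.89) and Gm13425 (0.87). No gene of the 10 was among the nearest 5 of another. Gja4 had under 100 UMIs and Gja5 did not pass the filter, so neither was compared.

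Levels were then compared between aged and adult mice within each class. Of 48 pairs of gene and class that could be tested, 5 were called (3 higher and 2 lower in aged mice), where 8.92% of the pairs of all genes were called, so that these 10 genes as a whole did not stand apart from that background. The share of all genes called was unequal between classes. It was 2905 of 15897 in SGC-like, 1983 of 21929 in neuron-like and 946 of 12359 in NMSC-like nuclei, but 130 of 11065 in endothelial-like nuclei. The median difference over the 48 pairs was -0.16 on the log2 scale, while the medians over all genes of a class lay between -0.01 and 0.04. At an unadjusted p under 0.05 there were 9 of the 48 pairs, where 19.2% of the pairs of all genes were. The 5 called pairs were Gjc1 in NMSC-like and in neuron-like nuclei, Gjb6 in neuron-like nuclei, and Panx1 and Panx2 in SGC-like nuclei. The main glial connexins were not among them. Gjc3 differed by -0.28 (95% interval -0.60 to 0.05) in SGC-like nuclei, by -0.43 (-0.79 to -0.08, edgeR adjusted p = 0.14) in NMSC-like nuclei and by 0.14 (-0.15 to 0.43) in MSC-like nuclei. In NMSC-like nuclei Gjc3 was called lower by edgeR with free RNA subtracted (-0.58, adjusted p = 0.0095) and with connexins kept in the clustering (-0.73, adjusted p = 0.0033). In the latter, Gjc3 could itself help to form the classes. NMSC-like nuclei then numbered 227, 248 and 125 instead of 465, 280 and 148, and the part of this change in the Gjc3 difference was not tested. Gjb1 differed by 0.40 in MSC-like nuclei (-0.03 to 0.84, adjusted p = 0.27), with both aged libraries above the adult one. The Gja1 difference in SGC-like nuclei was -0.01, with a 95% interval from -0.40 to 0.37, although both aged libraries were above the adult one in CPM. Fitted differences use the TMM scaling of edgeR, whereas a CPM is scaled by library totals only. With totals only (an alternative added once the data had been seen), the median over all genes was 0.19 in SGC-like, 0.17 in NMSC-like and 0.13 in neuron-like nuclei on the log2 scale and at most 0.10 in size elsewhere, the Gja1 difference was 0.18 (adjusted p = 0.57), and 4 pairs were called, 3 higher and 1 lower, where 9.85% of all pairs were. Of the called pairs of all genes, 56.6% were then higher in aged mice, against 41.5% with TMM.

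**Figure D3:**
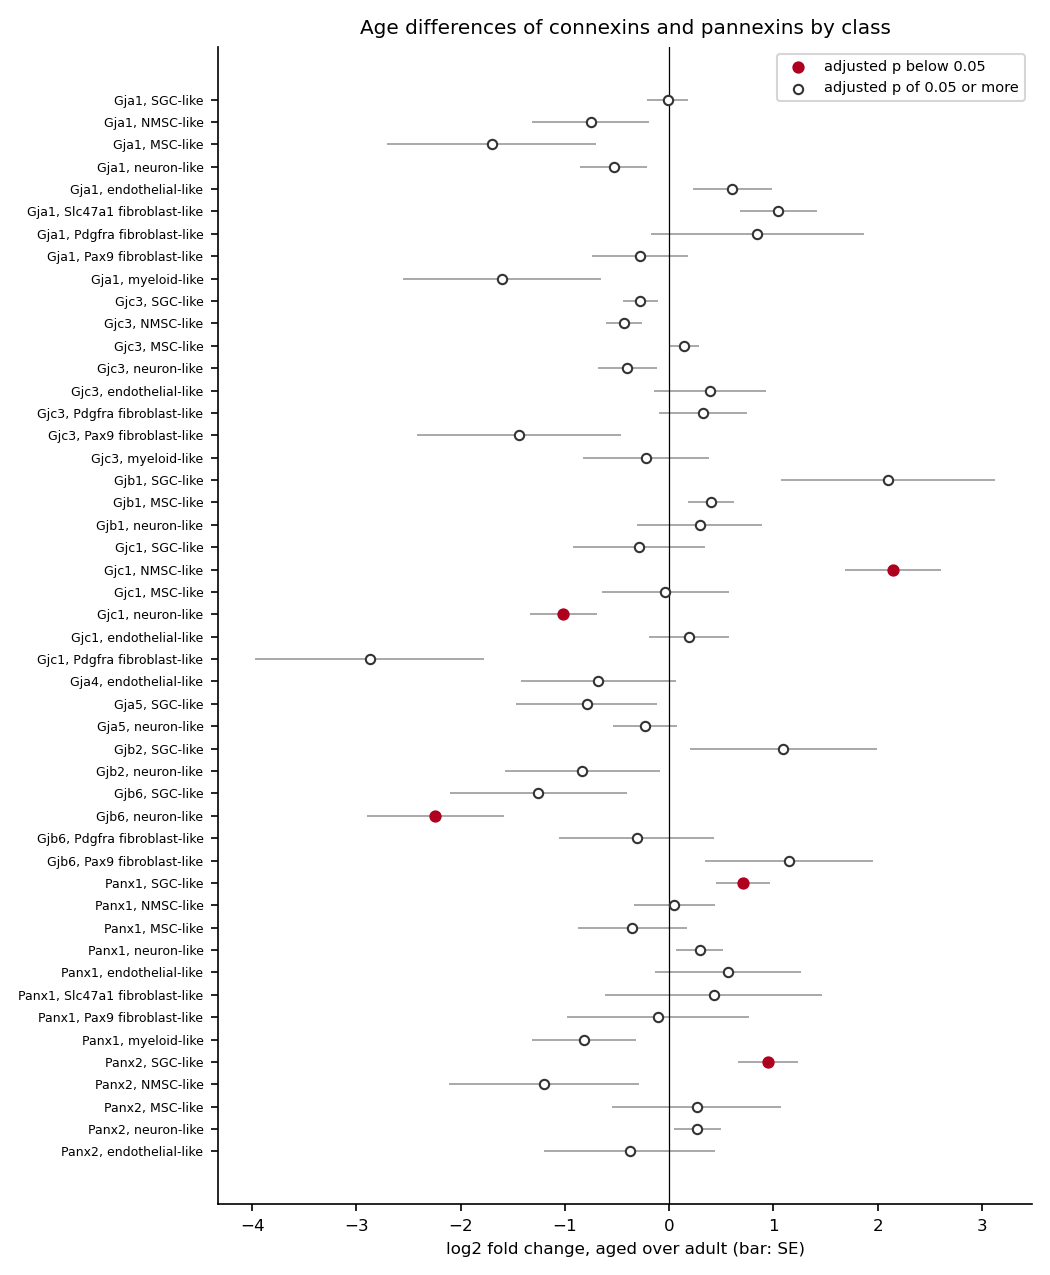
Difference between aged and adult mice (log2 fold change on the x axis, bars are SE) for the 48 tested pairs of gene and class. Filled points are the 5 pairs past the threshold: Gjc1 higher in NMSC-like and lower in neuron-like nuclei, Gjb6 lower in neuron-like nuclei, and Panx1 and Panx2 higher in SGC-like nuclei.

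Gjc1 had the smallest adjusted p of the called pairs. In NMSC-like nuclei it was at 8.07, 35.8 and 47.8 CPM, from 11, 50 and 34 UMIs. Both aged libraries were above the adult one, by 2.15 on the log2 scale (SE 0.46, 95% interval 1.20 to 3.10, adjusted p = 0.0034, edgeR quasi-likelihood test). Thinned to 1000 UMIs, 0.430% of adult NMSC-like nuclei and 3.21% and 4.73% of aged ones had a Gjc1 UMI. The call was lost with the size factors of DESeq2 (2.16, adjusted p = 0.13) and with the Wald test of DESeq2 (2.20, adjusted p = 0.18), at nearly the same size, and also with more than 2000 genes in each nucleus (1.87, adjusted p = 0.14) and after thinning (3.21, adjusted p = 0.17). Calls by age in NMSC-like nuclei fell over all genes too, from 946 of 12359 to 4 with the size factors of DESeq2 and 234 with its Wald test. The direction turned to -0.24 (adjusted p = 0.74) for Gjc1 when each nucleus was assigned by its own NMSC markers. The nuclei found in that way had 3663 to 4308 CPM of neuron markers and 531 to 785 CPM of glial markers, against 5810 to 5986 CPM of glial markers in the NMSC-like cluster.

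Several marker lists moved with Gjc1 in NMSC-like nuclei. The 6 fibroblast markers, none of them at 0, summed to 445 CPM in the adult library and to 1291 and 1207 CPM in the aged ones. The 8, 31 and 28 nuclei with a Gjc1 UMI had 546 (from 15 UMIs), 2563 and 1640 CPM of them. Nuclei without had 443, 1017 and 1095 CPM. Glial markers were at 4807, 4216 and 4529 CPM in nuclei with a Gjc1 UMI, against 6011, 6153 and 6190 CPM in those without. The class's own 6 NMSC markers summed to 3056, 5918 and 4923 CPM in the 3 libraries, and the 7 SGC markers were at 1703, 1105 and 1077 CPM. Adult nuclei with a Gjc1 UMI had 5645 CPM of NMSC markers, against 3003 CPM in those without, but in the aged libraries the levels were 5400 and 5490 CPM against 6029 and 4777 CPM. By both lists the adult library stood apart from the aged ones. Mural markers in NMSC-like nuclei were at 62.3, 20.8 and 42.2 CPM, and Gjc1 itself stood at 34.8, 4.16 and 5.62 CPM in the Pdgfra fibroblast-like class. The part of these markers in the Gjc1 difference was not tested.

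In neuron-like nuclei Gjc1 went the other way, at 3.96, 2.17 and 2.09 CPM, a difference of -1.02 (SE 0.32, adjusted p = 0.022). Free RNA held 5.38, 5.14 and 3.59 CPM of Gjc1, above the neuron-like level in every library, and its part in this difference was not tested. The Gjc1 call in neuron-like nuclei was lost with the DESeq2 test (adjusted p = 0.37), without clusters of low Malat1 (adjusted p = 0.066) and with totals only (adjusted p = 0.058). The largest ratio among subclasses was in NP nuclei, with 2.93, 1.17 and 0.509 CPM, while in NF (4.12, 5.36 and 3.00 CPM of Gjc1), PEP and COLD nuclei the adult and aged libraries overlapped. Whether the age difference was unequal between classes was tested directly for 8 of the 10 genes. It was so for 1, Gjc1 (edgeR quasi-likelihood F test of class by age, adjusted p = 0.0024), where 8.58% of all genes were called. The adjusted p of Gjc1 in that test was 0.067 when UMIs expected from free RNA were subtracted, 0.13 after thinning and 0.53 with nuclei assigned by their own markers.

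**Figure D4:**
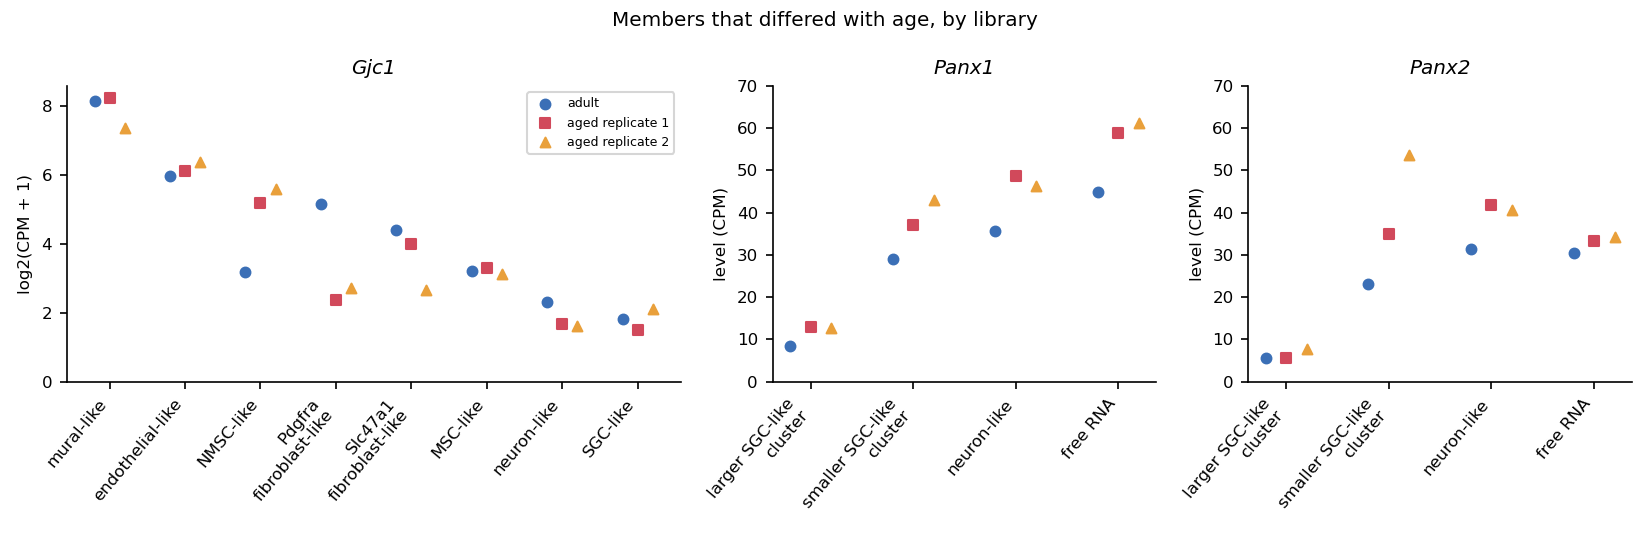
Left, Gjc1 as log2(CPM + 1) by class and library. Middle and right, Panx1 and Panx2 (CPM, y axis from 0) in the larger and the smaller SGC-like cluster, in neuron-like nuclei and in free RNA. Gjc1 is higher in both aged libraries in NMSC-like nuclei and lower in the Pdgfra fibroblast-like class, where the difference was not called (-2.87, adjusted p = 0.14), and both pannexins are higher in the smaller SGC-like cluster than in the larger one.

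The pannexins were called higher in aged SGC-like nuclei, Panx1 by 0.71 (SE 0.26, adjusted p = 0.041) and Panx2 by 0.95 (SE 0.29, adjusted p = 0.0088), from 11.7, 22.5 and 21.1 CPM of Panx1 and 8.38, 17.2 and 20.4 CPM of Panx2. Neuron markers moved with them. The 8 markers, none at 0, summed to 1328 CPM in adult and 2452 and 2053 CPM in aged SGC-like nuclei. Of the 2 SGC-like clusters, 3 of 8 neuron markers were raised in the smaller one, which held 394 of 3619 adult but 178 of 595 and 44 of 270 aged SGC-like nuclei. Panx2 was at 23.0, 34.9 and 53.7 CPM in it and at 5.67, 5.69 and 7.68 CPM in the larger cluster. Panx1 was at 29.2, 37.2 and 43.0 CPM in the smaller cluster and at 8.505, 12.9 and 12.8 CPM in the larger one, where both aged libraries were again above the adult one. Without the smaller cluster (an alternative added once the data had been seen), the Panx2 difference was 0.04 (adjusted p = 0.96) and the Panx1 difference 0.44 (adjusted p = 0.36). Both calls were also lost with the DESeq2 test (Panx1 adjusted p = 0.52, Panx2 adjusted p = 0.34), with more than 2000 genes (0.79 and 0.30) and with nuclei assigned by their own markers (0.93 and 0.87), and the Panx1 call without a filter on low counts (0.079), with free RNA subtracted (0.12), after thinning (0.58) and with connexins kept in the clustering (0.080). With the smaller cluster left out, neuron markers summed to 835, 1046 and 1034 CPM.

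Gjb6 in neuron-like nuclei was low in all libraries, at 0.549, 0.195 and 0.0331 CPM from 37, 8 and 1 UMIs, and was called lower in aged mice (-2.24, SE 0.66, adjusted p = 0.011). The Gjb6 difference was -4.05 without aged replicate 1 and -1.63 without aged replicate 2. The Gjb6 call did not hold with the DESeq2 test, with more than 2000 genes (adjusted p = 0.10) or without clusters of low Malat1 (adjusted p = 0.13). Free RNA held 7.67, 2.40 and 1.83 CPM of Gjb6, and fibroblast markers in neuron-like nuclei were lower in the same order, at 76.0, 63.8 and 37.4 CPM. At most 0.528% of neuron-like nuclei had a Gjb6 UMI in any library. The free RNA level was above the neuron-like one in every library, and the part of free RNA in this difference was not tested.

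The other 13 connexin and pannexin genes were rarely detected. None passed the filter of the class test, Gjd3 had no UMI in any nucleus, and the most abundant, Gja3, had 171 UMIs. By age, 6 pairs with neuron-like or other nuclei could be tested, and none was called by edgeR (1 at an unadjusted p under 0.05, Gja3 in neuron-like nuclei). Of 7 genes whose proteins bind or anchor connexins, 6 were tested by class and all 6 were higher in at least 1, as were 82.9% of all genes tested. Ccn3, a matricellular protein that binds connexin 43, was highest in Slc47a1 fibroblast-like nuclei (4.82, SE 0.17), with 203, 166 and 169 CPM. The scaffold gene Tjp1 led in endothelial-like nuclei (2.82, SE 0.14), and Cav1, the caveolin gene, in Pax9 fibroblast-like nuclei (3.78, SE 0.20). By age, 3 of 52 pairs of these genes were called, where 8.92% of all pairs were. Over all genes, 2905 of 15897 were called in SGC-like, 2036 of 12087 in myeloid-like and 398 of 9682 in Pdgfra fibroblast-like nuclei. The 3 called pairs were Cav1 higher in the Pdgfra fibroblast-like class (1.78, SE 0.44), and Dbn1, the drebrin gene, higher in SGC-like (0.80, SE 0.22) and lower in myeloid-like nuclei (-2.02, SE 0.63). Dbn1 stood at 57.4, 66.0 and 65.0 CPM in neuron-like nuclei, and neuron markers were higher in aged than in adult SGC-like nuclei. The part of neuronal RNA in the Dbn1 differences was not tested. With the DESeq2 test, the Cav1 call (adjusted p = 0.89) and the Dbn1 call in SGC-like nuclei (adjusted p = 0.20) were lost.

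Of 12 genes of other large-pore channels, 8 were tested by class and all 8 were higher in at least 1, again beside 82.9% of all genes. P2rx7, an ATP-gated receptor known to signal with Panx1, was highest in MSC-like nuclei (3.09, SE 0.16), at 284, 315 and 367 CPM. Calhm5 also had its highest mean in MSC-like nuclei (3.72, SE 0.33), at 30.8, 32.2 and 29.9 CPM. Slc47a1 fibroblast-like nuclei overlapped them, at 25.9, 19.4 and 32.3 CPM of Calhm5. Of the volume-regulated anion channel genes, Lrrc8b was called higher in neuron-like (1.93, SE 0.14) and Lrrc8c in endothelial-like nuclei (1.61, SE 0.14), among the 10 larger classes. The small mural-like class, outside that test, had 301, 237 and 578 CPM of Lrrc8c from 72 UMIs, above the endothelial-like 179, 233 and 385 CPM in each library, and its mean of Lrrc8b, from 15 UMIs, was 147 CPM against 114 CPM in neuron-like nuclei. By age, 6 of 74 pairs of these genes were called, where 8.92% of all pairs were. Over all genes, 2905 of 15897 were called in SGC-like and 2036 of 12087 in myeloid-like nuclei. P2rx7 was higher in aged myeloid-like nuclei (1.38, SE 0.23, adjusted p = 4.0e-04), at 91.5, 224 and 239 CPM. By markers, at most 25.4%, 9.73% and 7.49% of the UMIs of myeloid-like nuclei could come from free RNA, with the adult bound the highest. The P2rx7 call was lost with connexins kept in the clustering (0.41, adjusted p = 0.43), where the myeloid-like class held 54 instead of 214 adult nuclei, and with more than 2000 genes (1.05, adjusted p = 0.078). Lrrc8a (0.73, SE 0.22) and Lrrc8c (0.61, SE 0.19) were higher in aged SGC-like nuclei, and neither call held with the DESeq2 test (adjusted p = 0.29 and 0.20) or without the smaller SGC-like cluster (0.11 and 0.13). Lrrc8e was lower in aged neuron-like (-3.27, SE 0.44) and SGC-like nuclei (-2.07, SE 0.69), and Lrrc8d was higher in aged myeloid-like nuclei (0.65, SE 0.18). Lrrc8e was also lower in both aged libraries in myeloid-like (13.1, 0.862 and 1.03 CPM, from 7, 1 and 1 UMIs) and endothelial-like nuclei (13.0, 1.12 and 0 CPM). Its age difference was not shown to be unequal between classes (edgeR quasi-likelihood F test, adjusted p = 0.69).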

How the data were processed

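UMI counts per gene and barcode were deposited by the authors for 3 libraries, made with Pipseeker against mm10 (the build per the submitters' processing notes, its annotation release not given in the sources used here). The members and the gene lists were chosen with earlier results of these data known. Barcodes with more than 1000 genes, the minimum in the study's methods, were kept. SCTransform was used for normalization and RPCA for integration by age, over 30 principal components, with clustering at resolution 0.8 in Seurat 5.3.0 (R 4.3.3), without the 23 connexin and pannexin genes. Classes were named from marker lists, by rules set after clusters had been seen in earlier work, and 3 clusters with markers of several lineages (945 nuclei) were left out. No doublet caller was run, and doublets are not shown to be removed. Names were rebuilt here, so that classes may differ from the study's.

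UMIs were summed per library and class and tested with edgeR 4.0.16 (quasi-likelihood, TMM, filterByExpr), with Benjamini-Hochberg adjustment over all genes of a contrast. A class was set against the mean of the other classes, or against the next class, with the library as a block. The age test had 1 residual degree of freedom, with the single adult library taken to vary as the aged ones do. The study's Wilcoxon test on nuclei was not used, since nuclei are not replicates. Depth per library was 69045987 to 167664164 UMIs. Shares of nuclei have exact Clopper-Pearson intervals in the tables behind the text, and intervals of this kind cover counting error only. Named were all 10 genes, at most 4 genes past the threshold from each of 3 further lists by smallest p, and the 5 genes most like each member with 100 or more UMIs, of which the first are given. Further genes were chosen after their values were seen. Alternatives were DESeq2 1.42.0 (size factors or Wald test), no filter, more than 2000 genes, connexins kept in the clustering, nuclei assigned by their own markers, subtraction of free RNA, thinning to 1000 UMIs, 3 or more nuclei, no library block, library totals only for age and each library left out. Statistics were tested on simulated counts first. Results for some genes of these lists are not reported here.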

Additional observations from a re-analysis of the deposited data

Results flagged for a closer look

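The age difference of Gjc1 was unequal between classes by a test of the class by age terms (edgeR quasi-likelihood F test, adjusted p = 0.0024). Gjc1 was higher in aged NMSC-like nuclei (2.15 on the log2 scale) and lower in aged neuron-like nuclei (-1.02), and the adjusted p was 0.53 when nuclei were assigned by their own markers, 0.067 after free RNA was subtracted and 0.13 after thinning. The same test passed for P2rx7 (adjusted p = 0.014), which was higher in aged myeloid-like nuclei by 1.38, with adjusted p-values of 0.11, 0.14 and 0.19 under those alternatives. For P2rx7, the myeloid-like difference was 0.41 (adjusted p = 0.43) when connexins were kept in the clustering. NMSC-like nuclei assigned by their own markers held more CPM of neuron than of glial markers, which limits that alternative for Gjc1.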

How the results depend on the processing

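Counted were 26 results by class and 12 by age, from the genes described here and the further lists. Of the results by class, 369 of the values under alternatives kept their direction and side of the threshold, 8 lost the call and 5 turned direction. By age the numbers were 112, 42 and 5, and 3 more moved. Without 1 aged library, fits by age gave no p-value and so no side of the threshold. There a value of the same direction counted as kept if it lay within the SE of the reported one, and otherwise as moved. The number of genes called by class (8) was 5 with nuclei thinned to 1000 UMIs, where 5 could be tested, and 7 to 9 without 1 library. The 5 called pairs by age became 0 with the DESeq2 test (2 at an unadjusted p under 0.05) and 0 after thinning (3 at an unadjusted p under 0.05, 17 tested), where the share called over all genes fell from 8.92% to 1.79% and 3.89%. They became 1 with nuclei assigned by their own markers or with more than 2000 genes, and 3 without the smaller SGC-like cluster or without clusters of low Malat1, both chosen after seeing the data, with 5.33% to 7.97% of all pairs called under these 4. Class by age (1 gene) gave 2 without a filter, and 0 with own markers, with free RNA subtracted or after thinning, each with 1 at an unadjusted p under 0.05, while 8.24%, 1.63%, 3.69% and 6.67% of all genes were called, against 8.58% as reported. With own markers, the class difference of NMSC-like nuclei turned to -0.43 for Gjc1 and -0.97 for Gjc3, in nuclei with more CPM of neuron than of glial markers. Panx2 in SGC-like nuclei turned to -0.53 with own markers, -0.65 after thinning and -0.12 without the smaller SGC-like cluster. By age, Gjc1 in NMSC-like nuclei turned to -0.24 with own markers. Gja1 in SGC-like nuclei, at -0.01, was 0.0045 with the DESeq2 test, 0.20 after thinning, 0.18 with library totals only and -0.14 to 0.18 without 1 aged library. Gjc1 in neuron-like nuclei lost its call with the DESeq2 test (adjusted p = 0.37), and Gjb6 there with more than 2000 genes (adjusted p = 0.10). Gjb6 in neuron-like nuclei was -4.05 without aged replicate 1. The causes were not tested. No paired analysis was possible because nothing in the sample labels pairs an adult library with an aged one. Depth limits Gja4 and Gjb2, with 97 and 141 UMIs in all, and Gja5 (586 UMIs) did not pass the filter of the class test.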
